A study of Mus musculus with 16 samples.

Results

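The nuclear-encoded subunits of the mitochondrial respiratory chain were followed in the efferent duct and the caput epididymis of mice that had lost the testes or received a sex steroid. Members were taken by gene symbol alone. They were the numbered Ndufa, Ndufb, Ndufc, Ndufs and Ndufv genes, Sdha to Sdhd, the genes starting with Uqcr, Cox4i, Cox5, Cox6, Cox7 or Cox8, and Cycs and Cyc1. A gene counted when a probe set carried its symbol and no other, and its brightest probe set stood for it. This gave 65 of the 18194 genes measured, of which 33 belong to complex I, 4 to complex II, 9 to complex III and 18 to complex IV, with cytochrome c as the last.

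RNA from the efferent duct, which joins testis and epididymis, and from the caput, the head of the epididymis, had been measured on 16 one-colour Affymetrix arrays, 8 per tissue and 2 per group. The animals were adult male mice of strain 129BL/6. The sham group had sham surgery and vehicle, and the other 3 groups of each tissue were castrated and received vehicle, testosterone propionate (TP, an ester of the androgen testosterone) or estradiol (E2, an estrogen). Injections followed 14 days after surgery, as 100 µL in sesame oil with 10% ethanol and with 0.015 mg of either steroid, and tissue was collected 12 hours later. TP and E2 were thus each compared in castrated animals at 1 dose and 1 time, and no sham group received a steroid. Castration removes sperm and testicular fluid together with the testicular hormones. The labels do not state that duplicates came from separate animals, and p-values measure the spread between these samples alone.

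The respiratory chain passes electrons from NADH and succinate to oxygen and builds the proton gradient that drives ATP synthesis. Complex I (the Ndufa, Ndufb, Ndufc, Ndufs and Ndufv products) takes electrons from NADH, and complex II (the Sdh products) takes them from succinate. Complex III (the Uqcr products and Cyc1) hands them to the soluble carrier cytochrome c (Cycs), and complex IV (the Cox products and Ndufa4) passes them to oxygen. The subunits encoded in the mitochondrial genome were not analysed here. The epithelium of the epididymis depends on androgens and on factors from the testis for its secretory work, and that of the efferent duct is known for reabsorbing testicular fluid and for its estrogen receptor.

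The subunits were among the brightest signals of the arrays. Their median mean log2 intensity over the 16 arrays was 9.89, beside 6.19 for all genes, and 47 of the 65 lay in the brightest 10% of genes. Background was set on each array at the brightest of 27 Bacillus control probe sets, between 2.33 and 14.3 in intensity. By that measure 58 members were above background on all 16 arrays and 7 were not, among them Cox7b2, Cox8b, Cox8c, Cox4i2 and Cox7a1, tissue-restricted forms of complex IV subunits. Ndufb1 and Ndufb4 were the others, and for Ndufb4 the brighter probe sets carry several gene symbols and were left out. The caput libraries were made from 10 µg of RNA with a One-Cycle kit and those of the efferent duct from 50 ng with an Ovation kit, so levels are not set against each other between tissues.

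The arrays of the efferent duct differed in signal quality. The log2 ratio of the actin 3' to 5' probe sets, a gauge of shortened transcripts, ran from 3.11 to 3.87 on its 4 vehicle arrays and from 0.91 to 1.93 on its 4 steroid arrays. Castrated replicate 1 stood apart among the vehicle arrays, at 3.87 where the others were at 3.11 to 3.18, and TP replicate 2 among the steroid arrays, at 1.93 where the others were at 0.91 to 1.31. The vehicle arrays carry castrated against sham and the steroid arrays carry TP against E2, while a steroid against castrated vehicle spans both sets and is given last. In the caput the same ratio was 0.79 and 1.02 on the castrated arrays and 0.64 and 0.75 on the sham arrays, and 1.08 and 1.20 with TP against 0.88 and 1.02 with E2, and its part in the caput differences below was not tested.

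Castrated caput was compared with sham caput to see which subunits change when the testis is gone. Of the 65 subunits 12 fell and 0 rose, a share of 18.5% (limma, adjusted p under 0.05 over 18194 genes). Of all genes 14.0% were called, 6.12% lower and 7.9% higher. At an unadjusted p under 0.05, 30 members were lower (13.2% of all genes) and 0 higher (18.3%). The members leaned down beyond these calls: 55 had a fitted difference below 0 (84.6%, beside 45.9% of all genes), and their median was -0.32 on the log2 scale beside 0.06 for all genes. Both castrated arrays lay below both sham arrays for 46 members (70.8%, beside 27.6% of all genes) and above them for 3 (4.62%, beside 35.1%). The median member stood at 10.28 and 10.29 (log2 intensity) on the sham arrays and at 9.80 and 9.87 on the castrated arrays. In bulk tissue, fewer cells of a type and less RNA per cell cannot be told apart.

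**Figure D1:**
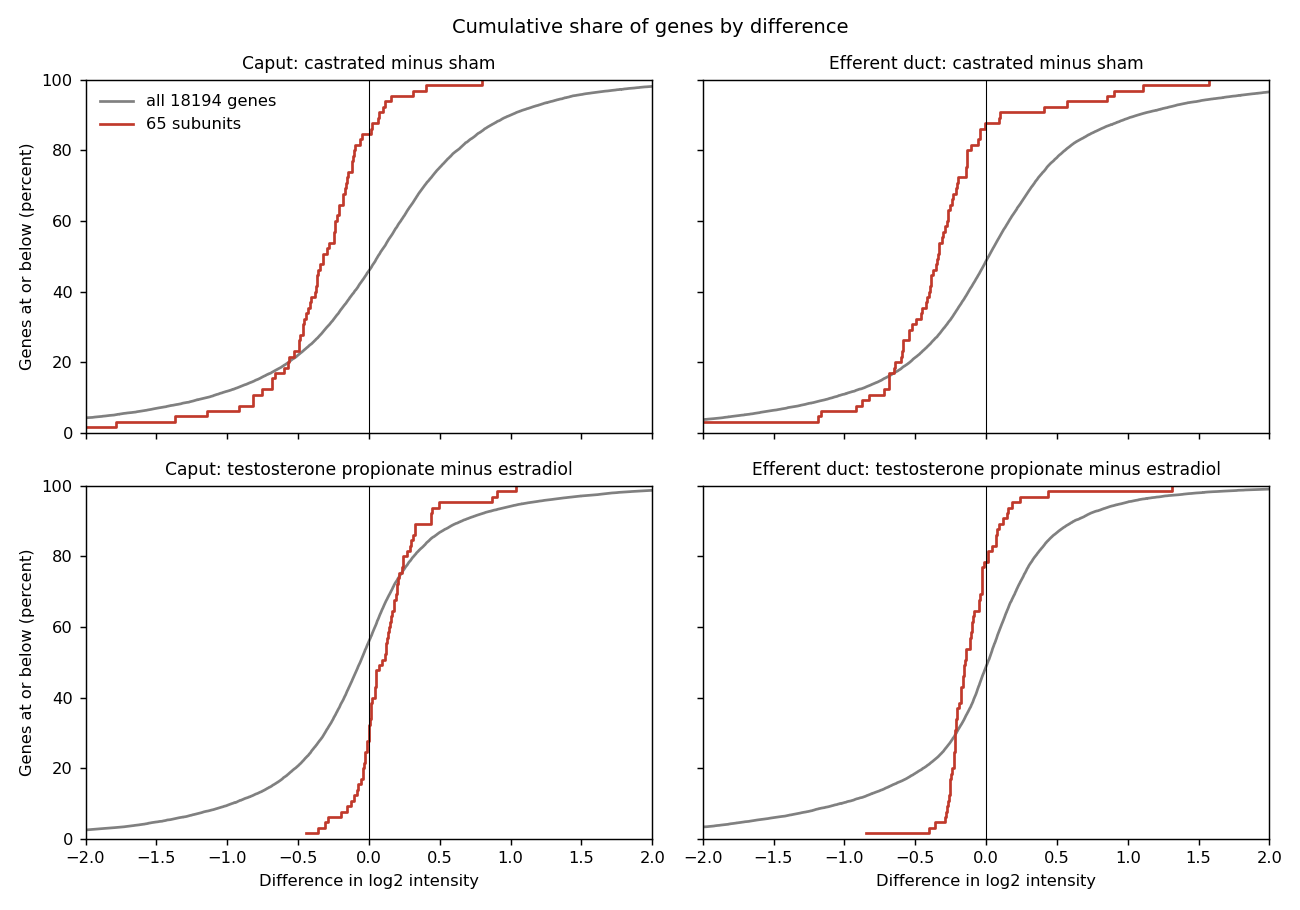
Cumulative percent of genes (vertical axis) at or below each difference in log2 intensity (horizontal axis) for the 65 subunits and for all 18194 genes, with 1 panel per tissue and comparison, each from 2 arrays against 2. After castration most subunits lie below 0 in both tissues, with medians of -0.32 in the caput and -0.34 in the efferent duct, and the axis ends at -2 and 2.

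The calls rested on all arrays of the comparison. When any 1 of the 4 was left out no member passed, and 326 to 523 of all genes did. The median of the members stayed between -0.34 and -0.28 in those fits, with 51 to 57 members below 0. The lean also kept its direction when the arrays were rescaled: quantile normalization gave a median of -0.18 with 45 members below 0, and centring each array on its median gave -0.47 with 61 below 0, with all genes at 0.06 and -0.08. The calls moved more: 6 members passed after quantile normalization, beside 12.9% of all genes, and 20 after centring, beside 12.8%.

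Complex I, with 33 of the 65 members, held 7 of the 12 subunits that fell, which is near its share of the members. Ndufa1, a small accessory subunit needed to assemble the complex, had intensities of 4829 and 5069 on the sham arrays and of 1859.6 and 1977 on the castrated arrays. The castrated arrays were far below the sham arrays, and the gap between groups was many times the gap within them. Ndufa1 fell 2.58-fold (log2 difference -1.37, SE 0.14, limma adjusted p = 0.0090), more than any other subunit above background on all 4 arrays. Ndufb4 and Cox7b2 had larger fitted differences but were not above background throughout.

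Ndufc1, another accessory subunit of the membrane arm, was at 1633 and 1618 in sham and 849 and 874 in castrated caput. It fell 1.89-fold (log2 difference -0.92, limma adjusted p = 0.0167), with the duplicates of each group nearly equal. Ndufa3, an accessory subunit of the membrane arm too, was at 3001 and 2892 against 1709 and 1784 and fell by 0.75 on the log2 scale. Ndufv3, an accessory subunit of the NADH-binding module, was at 1858 and 1784 against 1098 and 1168 and fell by 0.69. Neither gene's groups overlapped.

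Ndufv2 was the one core catalytic subunit that fell. Its product carries an iron-sulfur cluster in the NADH-binding module, and its intensities were 2063 and 1986 in sham and 1245 and 1277 in castrated caput (log2 difference -0.68, limma adjusted p = 0.0187). The partner in that module, Ndufv1, had a log2 difference of 0.07 that did not pass, and none of the other core subunits passed either. Ndufc2 was at 2322 and 2463 against 1567 and 1651 and fell by 0.57, and Ndufb7 was at 1345 and 1468 against 968 and 935 and fell by 0.56. Both are accessory subunits of the membrane arm, and in both the castrated arrays lay below the sham arrays. Over the complex, 26 of 27 accessory subunits and 3 of 6 core subunits had a difference below 0.

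Cycs, the mobile carrier between complexes III and IV, was at 2498 and 2786 in sham and at 1249 and 1147 in castrated caput. The lower sham array was still well above the higher castrated one. Cycs fell 2.20-fold (log2 difference -1.14, SE 0.14, limma adjusted p = 0.0115). Its docking partner in complex III, cytochrome c1 (Cyc1), was at 1079 and 978 against 981 and 917, with overlapping groups and a log2 difference of -0.11 (95% interval -0.49 to 0.26).

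Complex III had 9 of 9 members below 0 with a median of -0.25, and 1 call. That was Uqcrq, a small subunit near the ubiquinone-binding site, at 982 and 878 in sham and 548 and 505 in castrated caput (log2 difference -0.82, limma adjusted p = 0.0211). Its groups lay apart. The call depends on the probe set: its other probe sets are not above background, and the mean of all its probe sets had a log2 difference of 0.99 that did not pass.

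Complex IV had 14 of 18 members below 0 and 3 calls, all among its 10 common subunits. Cox5a, which sits at the matrix face of the complex, was at 2454 and 2584 in sham and 1473 and 1385 in castrated caput (log2 difference -0.82, limma adjusted p = 0.0165). Ndufa4, once counted to complex I and now known as a complex IV subunit, was at 1486 and 1298 against 861 and 897 and fell by 0.66. Cox7a2 was at 4495 and 4679 against 3118 and 3249.7 and fell by 0.53. In all 3 the castrated arrays were the lower ones, without overlap.

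The isoforms of complex IV subunits did not move as 1 block. Of the common forms, Cox6a1 was at 4390.4 and 4317 in sham and at 3069 and 3401 in castrated caput (log2 difference -0.43, limma adjusted p = 0.125). Cox8a was at 1923 and 1658 against 1262 and 1278 (-0.49), Cox4i1 at 4434 and 4658 against 3592 and 3874 (-0.28) and Cox6b1 at 3710.0 and 3702 against 2772 and 3069 (-0.35). In each of the 4 the castrated arrays lay below the sham arrays, and none of the 4 passed. The muscle forms Cox6a2 (31.6 and 32.4 in sham, 22.1 and 39.2 in castrated caput) and Cox7a1 (29.0 and 29.1, then 23.6 and 36.9) were dim and overlapped between groups. Of the testis forms, Cox7b2 was at 20.2 and 17.8 in sham and 9.11 and 3.33 in castrated caput, with the last of these below background, and did not pass. Cox6b2 (113 and 65.7, then 109 and 119) and Cox8c (97.6 and 91.7, then 97.3 and 74.3) overlapped between groups. Cox8b (5.96 and 16.3, then 3.93 and 12.9) and Cox4i2 (5.29 and 7.78, then 15.6 and 8.03) were not above background on all 4 arrays. Cox6c went the other way from most common subunits, at 4506 and 4678 in sham and 4963 and 5291 in castrated caput, and did not pass (log2 difference 0.16, 95% interval -0.16 to 0.48). That interval holds for the probe set kept, and a further Cox6c probe set above background had a difference of 0.63, outside it.

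**Figure D2:**
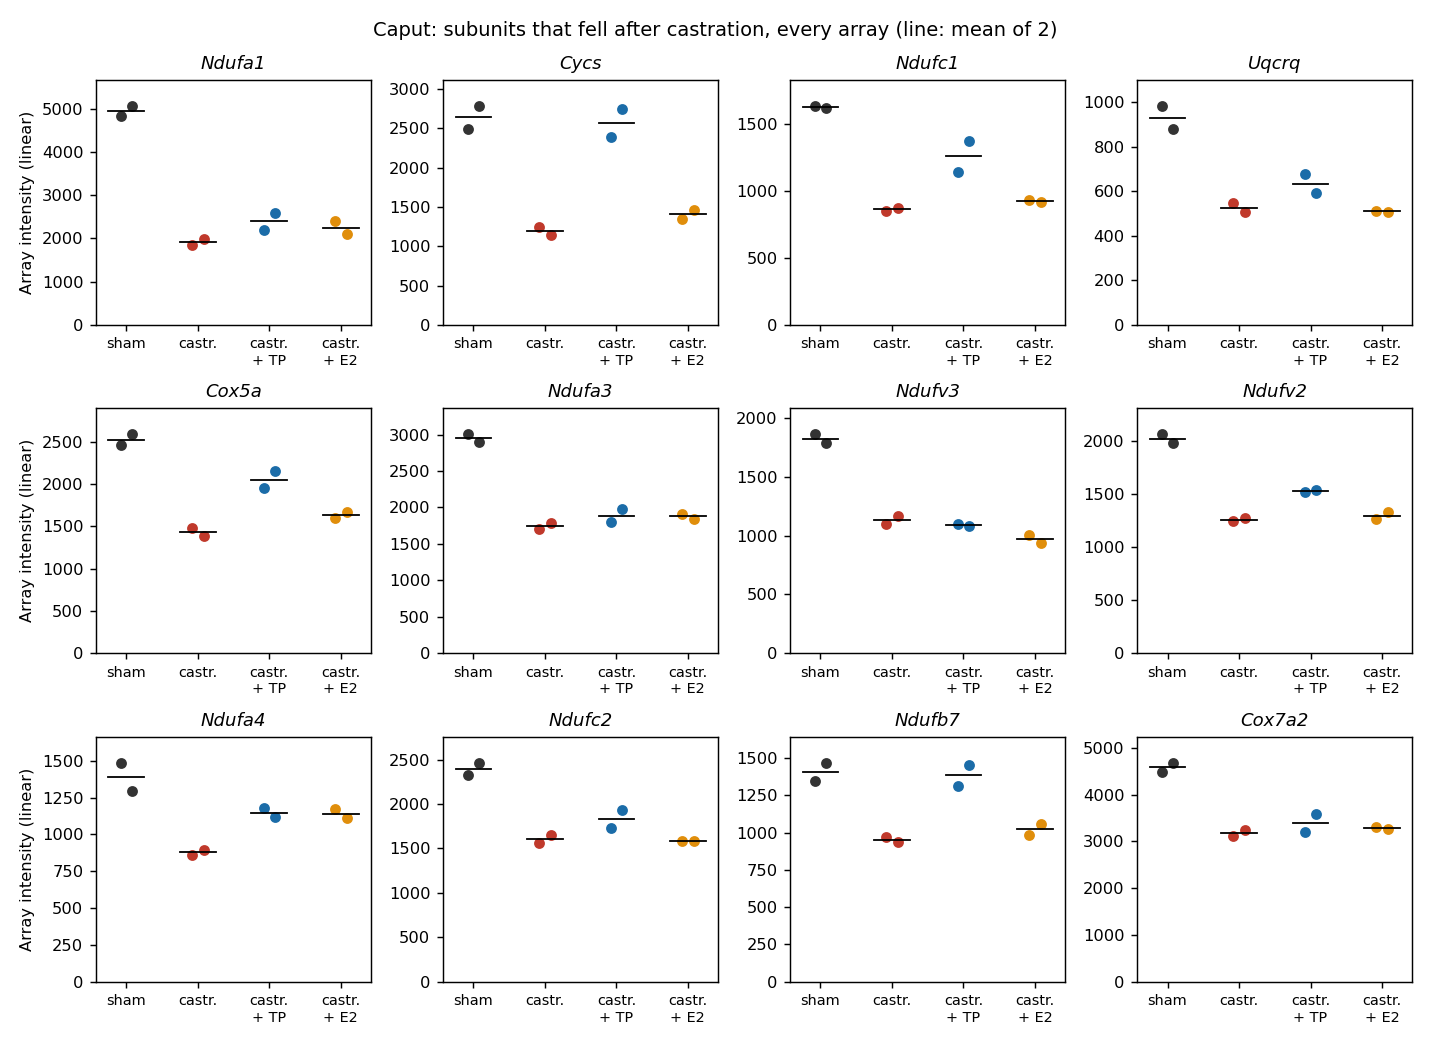
Array intensity (vertical axis, linear, from 0) of the 12 subunits that fell in the castrated caput, with 1 point per array and a line at the mean of 2, for sham, castrated, castrated with TP and castrated with E2. By the probe sets kept, Cycs and Ndufb7 with TP lie near the sham arrays, while Ndufa1 and Ndufa3 with either steroid lie near the castrated arrays.

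Complex II was the complex with 0 calls, but it has only 4 members, too few for 0 calls to set it apart. Sdha, its flavoprotein, was at 1703 and 1506 in sham and 1694 and 1739 in castrated caput, which overlapped, with a log2 difference of 0.10 (95% interval -0.20 to 0.40). The iron-sulfur subunit Sdhb was at 959 and 904 against 788 and 857 (-0.18). Of the membrane anchors, Sdhc was at 571 and 744 against 771 and 605 (0.07) and Sdhd at 693 and 613 against 516 and 489 (-0.38, limma adjusted p = 0.104). Sdhb and Sdhd were lower on both castrated arrays, and Sdhc overlapped. Further probe sets above background had differences of -0.84 for Sdhd, 0.34 for Sdhc, and 0.05 and -0.03 for Sdha. Ndufs7, a core subunit of complex I, was higher on both castrated arrays, at 779 and 788 in sham and 949 and 993 in castrated caput (log2 difference 0.31, limma adjusted p = 0.195). Ndufs1, another core subunit, overlapped between groups, at 368 and 397 against 381 and 446.

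**Figure D3:**
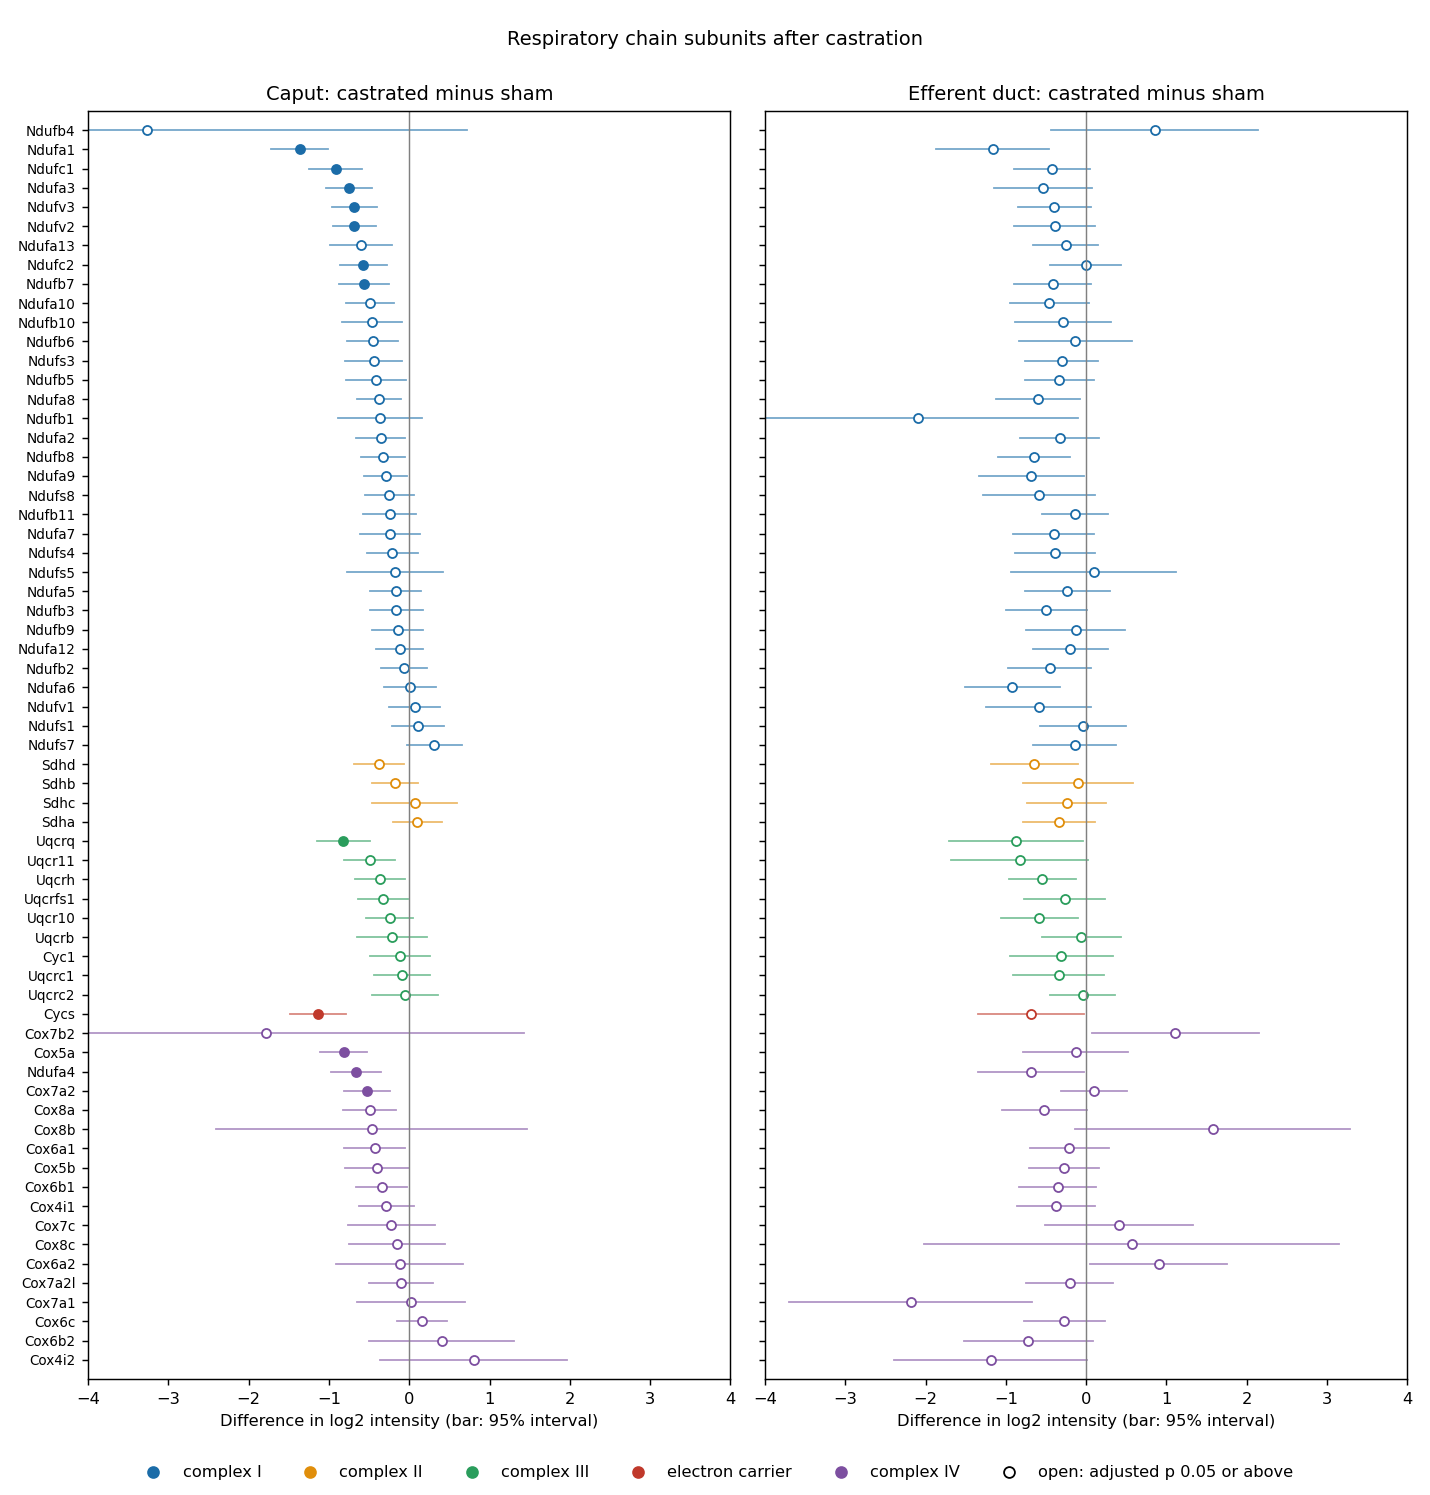
Difference in log2 intensity between castrated and sham arrays (horizontal axis, bars are 95% intervals, 2 arrays per group) for each of the 65 subunits, grouped by complex, in the caput and the efferent duct. Filled points passed limma's test at an adjusted p under 0.05; these are 12 in the caput and 0 in the efferent duct, and the intervals of Ndufb4 and Cox7b2 in the caput and of Ndufb1 in the efferent duct run past the left edge.

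Other probe sets of the same genes were read as a check. In the caput 61 further probe sets of members were above background, and 53 of them had the same sign of castration difference as the probe set kept. Of 13 that belong to the subunits that fell, 12 were below 0, and the other, for Ndufa3, was at 0.08. Probe sets shared with a near-identical copy were not counted. A pair shared by Ndufb4, Ndufb4b and Ndufb4c had log2 differences of -0.27 and -0.26 in the caput and of -0.63 and -0.95 in the efferent duct.

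Markers of several cell types moved with castration as well, in a comparison where 6.12% of all genes were called lower and 7.9% higher. Of 7 markers of caput principal cells, the main secretory cells, 6 fell, and their summed intensity was 62466 and 62700 on the sham arrays and 5998 and 6143 on the castrated arrays. Of 10 germ cell and sperm markers 6 fell, with sums of 7363 and 1916 on sham replicates 1 and 2 and of 129 and 158 on the castrated arrays. The median member was at 10.28 and 10.29 on those sham replicates. Clear and narrow cells had 7 markers, of which 4 rose and 2 fell, with sums of 2644 and 2841 in sham and 1532 to 1684 in castrated caput. Of 7 macrophage markers 2 rose, and of 5 fibroblast markers 1 rose and 2 fell. Of 4 markers of brown fat, a tissue rich in mitochondria, 0 passed, and its defining marker Ucp1 was below background on the 4 arrays of the comparison. The part of these cell types in the subunit differences was not tested.

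Genes that build or serve the chain were described by lists chosen with earlier results of these data known. Beside the counts of these lists and those that follow for the caput, 45.9% of all genes were below 0 after castration. The shares called were 6.12% lower and 7.9% higher, and some of the lists' counts of calls lie near them. Of 18 ATP synthase subunits 16 had a difference below 0 (median -0.31) and 2 fell, among them Atp5g1, a c-ring subunit of the rotor, from 1602 and 1584 to 775 and 724 (log2 difference -1.09, limma adjusted p = 0.0117). Of 45 assembly factors of complexes I to IV 33 were below 0 (median -0.20), 4 fell and 1 rose. Cox15, which makes the heme of complex IV, fell by 2.70 on the log2 scale, and Cox17, a copper chaperone of complex IV, fell by 0.91. Of 76 mitochondrial ribosomal proteins 58 were below 0 (median -0.20) and 12 fell, with Mrpl37 (-1.75) and Mrpl41 (-1.27) in the lead. Of 28 genes of protein import and cristae 22 were below 0 (median -0.31) and 3 fell.

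Enzymes on either side of the chain were divided. Of 17 citric acid cycle enzymes 9 were below 0 (median -0.14), 1 rose and 1 fell. Of 14 glycolytic enzymes 10 were below 0 (median -0.20), 2 rose and 1 fell, the last being Hk2, the inducible hexokinase, from 794 and 803 to 221 and 222 (log2 difference -1.85, limma adjusted p = 0.0030). The 22 regulators of mitochondrial biogenesis leaned the other way from the subunits. Of these, 20 were above 0 (median 0.56), 6 rose and 0 fell. Nrip1, a corepressor of nuclear receptors that is known to restrain oxidative genes, rose from 754 and 736 to 1463 and 1488, and Esrrg, an orphan receptor that is known to promote them, rose from 60.9 and 65.3 to 116 and 133.

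**Figure D4:**
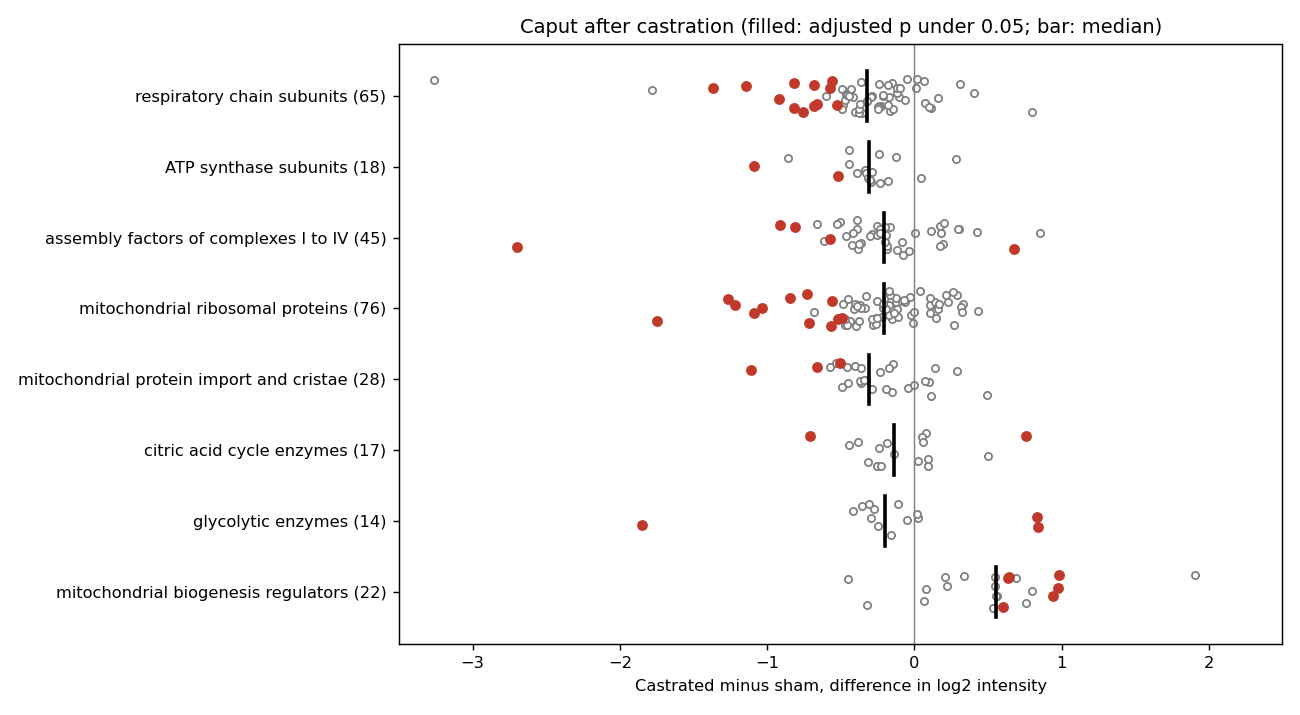
Difference in log2 intensity between castrated and sham caput (horizontal axis) for each gene of 8 lists (vertical axis, number of genes measured in brackets), with 2 arrays per group. Filled points passed limma's test at an adjusted p under 0.05 and bars are medians, which are -0.32 for the respiratory chain subunits and 0.56 for the biogenesis regulators.

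The start regions of the subunit genes were searched for letters of factors known to act on respiratory genes or steroid targets. RefSeq windows of GRCm38.p6 reaching from 250 bases before to 50 after a gene's start were matched for 52 of the 65 members, 11 of them among the 12 that fell, and both strands were read. The NRF1 motif was first searched in its full palindromic form, which is CGCANGCG with a G before it and a C after it. It was in 9 of 52 members (17.3%) and in 5.19% of all genes, and in 0 of the 11 that fell. The ETS core CCGGAAG bound by GABP was in 11 members (21.2%, beside 9.93%), of which Ndufb7 had fallen. The ERR motif TCAAGGTCA was in 1 member, Sdhd (1.92%, beside 0.466%). The androgen response half-site AGAACA was in 8 members (15.4%, beside 21.3%), of which Ndufa3 and Ndufv2 had fallen. The full androgen response element, which joins that half-site to its reverse complement over 3 bases, and the palindromic estrogen response element were in 0 members, and in 0.0111% and 0.074% of all genes.

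The full NRF1 form misses a variant in Cycs, which was noticed when the sequence was read. The 8 inner letters CGCANGCG alone were therefore searched too, and any full motif also counts here. They were in 15 members (28.8%) and in 9.22% of all genes, with Cycs as the 1 fallen gene that holds them. A match of letters is not a site shown to be bound, and a window without them says nothing of the factor. The 250 bases before the start of 4 genes are printed to show the range: the pair with the largest falls, a fallen gene with an ETS core, and Cox6a1, which holds the NRF1 motif 2 times and an ETS core and did not pass. Capitals mark the NRF1, inner NRF1 and ETS letters on either strand, and the Cycs window has no full NRF1 motif.
Ndufa1: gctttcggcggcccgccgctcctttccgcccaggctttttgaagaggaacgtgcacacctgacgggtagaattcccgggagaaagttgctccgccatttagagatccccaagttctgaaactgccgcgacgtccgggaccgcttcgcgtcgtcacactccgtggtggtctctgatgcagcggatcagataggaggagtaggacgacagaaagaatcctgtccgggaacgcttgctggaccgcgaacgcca
Cycs: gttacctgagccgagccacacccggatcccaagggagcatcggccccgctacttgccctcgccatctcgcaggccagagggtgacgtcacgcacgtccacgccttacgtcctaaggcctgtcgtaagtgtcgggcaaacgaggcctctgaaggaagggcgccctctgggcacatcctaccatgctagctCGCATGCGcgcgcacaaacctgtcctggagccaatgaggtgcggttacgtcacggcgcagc
Ndufb7: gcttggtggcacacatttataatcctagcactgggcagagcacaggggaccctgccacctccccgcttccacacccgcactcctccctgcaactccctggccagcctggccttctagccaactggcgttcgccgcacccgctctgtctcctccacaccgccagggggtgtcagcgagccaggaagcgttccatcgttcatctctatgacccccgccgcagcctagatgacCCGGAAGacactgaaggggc
Cox6a1: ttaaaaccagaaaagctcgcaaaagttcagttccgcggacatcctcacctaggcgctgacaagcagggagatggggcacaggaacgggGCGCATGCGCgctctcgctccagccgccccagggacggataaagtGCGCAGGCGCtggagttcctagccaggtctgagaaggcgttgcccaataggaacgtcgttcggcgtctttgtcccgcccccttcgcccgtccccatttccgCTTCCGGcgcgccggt
The first is from chrX:37191239-37191488 (minus strand), the second from chr6:50566570-50566819 (minus strand), the third from chr8:83566508-83566757 (plus strand) and the last from chr5:115348959-115349208 (minus strand), each 5′ to 3′ along the gene. The ETS letters begin 20 bases before the start in Ndufb7 and 16 in Cox6a1, and the inner NRF1 letters 61 bases before it in Cycs. Ndufa1 shows none of the letters searched in this stretch.

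The hormone comparison in the caput set TP against E2 in castrated animals, to see whether the steroids differ in their effect on the subunits. Of the 65 members 0 passed limma's test, and 2.12% of all genes did. At an unadjusted p under 0.05, 5 members were higher with TP (7.3% of all genes) and 1 lower (10.1%). The members leaned towards TP: 20 were below 0 and 45 above, while 55.9% of all genes were below 0, and the median was 0.09 beside -0.06. Both TP arrays lay above both E2 arrays for 24 members (36.9%, beside 20.6% of all genes) and below them for 3 (4.62%, beside 27.9%). The lean shrank under some settings: quantile normalization left 36 members above 0 with a median of 0.04, the mean of all probe sets 40 with a median of 0.03, and without TP replicate 2 there were 35 above 0 with a median of 0.04.

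Cycs stood apart from the other subunits in this comparison. It was at 2394 and 2745 with TP and at 1348 and 1463 with E2. The TP arrays were at the level of the sham arrays, and the E2 arrays lay near the castrated ones. The difference was 0.87 on the log2 scale (SE 0.14, 95% interval 0.52 to 1.21), and limma's adjusted p = 0.0521 was just above the threshold. It passed when the 40% dimmest genes were left out and when the arrays were centred on their medians. It also passed with an intensity trend in the variance and with values under 16 set to 16. It did not pass with quantile normalization, with the mean of all probe sets or in 1 fit of all 16 arrays. Nor did it pass in a fit of the 4 arrays alone or with replicate number as a block. With 1 array left out the difference lay between 0.77 and 0.97.

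Among the subunits of complex I, Ndufs7, Ndufc1 and Ndufb7 each had a log2 difference of 0.44 between TP and E2. Ndufc1 was at 1139 and 1373 with TP and 929 and 916 with E2, Ndufb7 at 1313 and 1457 against 985 and 1059 and Ndufs7 at 1052 and 1280.5 against 836 and 872. The TP arrays were higher in all 3 without overlap, and none of the 3 passed (limma adjusted p = 0.189, 0.167 and 0.199). A further probe set of each gave less, 0.20 for Ndufc1, 0.13 for Ndufb7 and 0.11 for Ndufs7. Over all members, 44 of 63 further probe sets above background had the sign of the one kept in this comparison and 19 the opposite. Complex I leaned most, with 27 of 33 members above 0 and a median of 0.16, and complex IV had 9 of 18 above 0. At the low end, Ndufs5 was at 509.6 and 493 with TP and 725 and 639.8 with E2, a difference of -0.44 (a probe set shared with an Ndufs5 pseudogene gave -0.06), and Ndufa6, an accessory subunit, was at 994 and 1109 against 1374 and 1317, a difference of -0.36. Ndufa7 was at 1875 and 1830.2 against 2524 and 2023 (-0.29), and these are the 3 members with both TP arrays below both E2 arrays. Cox6a2 overlapped at 19.99 and 20.2 against 27.3 and 19.4 (-0.20).

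Ndufa1, which had fallen most after castration, did not separate the steroids. It was at 2205 and 2595 with TP and at 2398 and 2095 with E2, both well below the sham arrays, and the groups overlapped. The log2 difference was 0.09 with a 95% interval from -0.26 to 0.45, so a 2-fold difference lies outside the interval. Ndufa4 and Ndufa3 also had differences near 0 (0.01 with a 95% interval of -0.30 to 0.32, and 0.0032 with one of -0.28 to 0.29).

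The other complexes showed smaller differences between the steroids. In complex III, Cyc1 was at 1151 and 1310.0 with TP and 897 and 1071 with E2 (0.32), with the TP arrays higher. In complex II, Sdhb was at 901 and 919.5 against 824 and 786 (0.18) and Sdha at 1207 and 1282 against 1175 and 1246 (0.04), the latter overlapping. In complex IV, Cox5a was at 1952 and 2152 against 1599 and 1666 (0.33) without overlap, while Cox4i1, Cox6a1 and Cox6b1 overlapped between the steroids and had differences of -0.04, 0.14 and 0.02. None of these passed.

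No array serves both the castration and the steroid comparison. All 12 subunits that fell after castration had a TP mean above the E2 mean, by 0.0032 to 0.87 with a median of 0.22, though 0 of them passed. Over all members 41 were lower after castration and higher with TP than with E2, beside 23.5% of all genes. In the efferent duct 11 members did so, beside 26.9% of all genes. In the caput 55 members were below 0 after castration and 45 above 0 for TP against E2. Much of the count of 41 therefore follows from both leans.

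**Figure D5:**
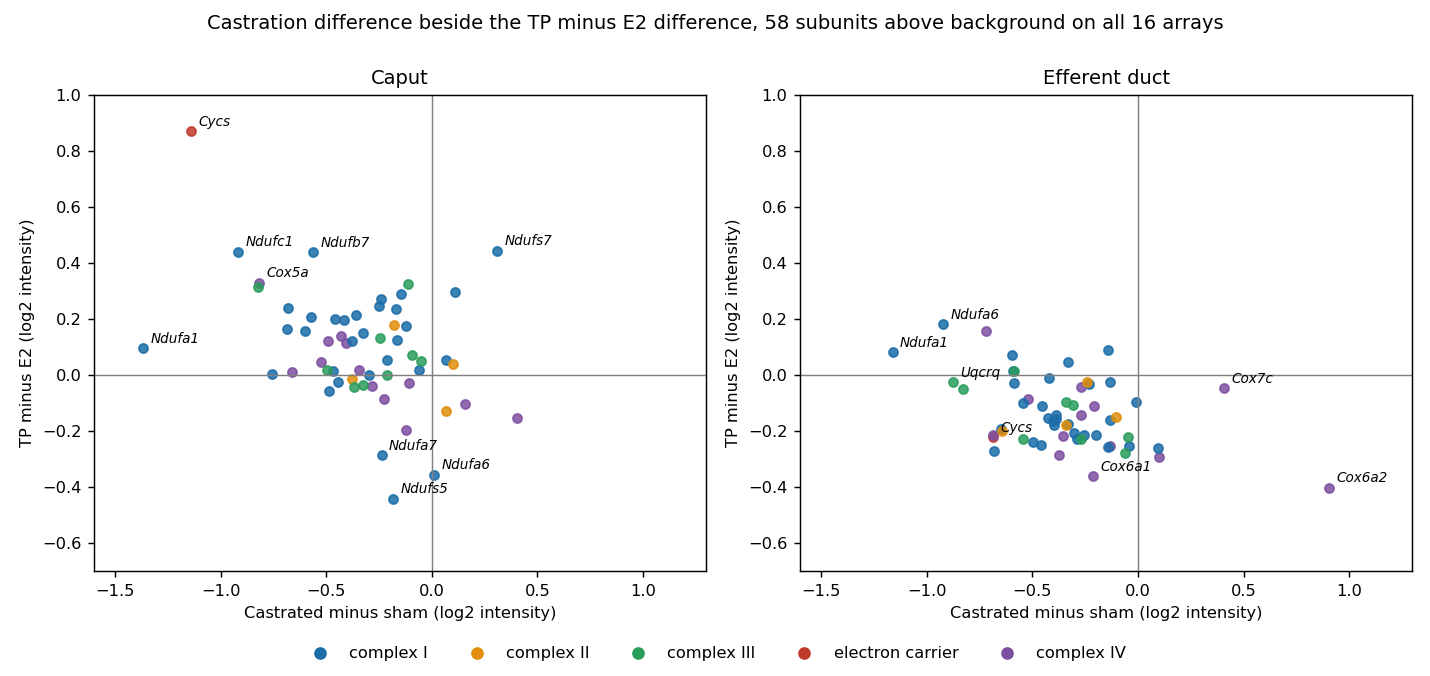
Each point is 1 of the 58 subunits above background on all 16 arrays, with the castrated minus sham difference (horizontal axis, log2) and the TP minus E2 difference (vertical axis, log2) in the caput and the efferent duct, each from 2 arrays against 2. Cycs lies at -1.14 and 0.87 in the caput and at -0.69 and -0.22 in the efferent duct, while Ndufa1 lies near 0 on the vertical axis in both tissues.

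Each steroid was also set against castrated vehicle in the caput. Both comparisons share the castrated arrays with each other and with the comparison of castrated with sham. With TP, Cycs rose 2.14-fold (log2 difference 1.10, limma adjusted p = 0.0398) and was the 1 member called, beside 1.67% of all genes. With E2 0 members and 0 of all genes were called (0.0%), with 2637 genes (14.5%) and 2 members at an unadjusted p under 0.05, and Cycs differed by 0.23. The call for Cycs with TP was lost without any 1 of the 4 arrays.

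Set as a share of the loss after castration, the log2 difference with TP came to 96.4% for Cycs and 95.9% for Ndufb7, the latter without passing. Cox5a was at 1952 and 2152 with TP, between the sham and the castrated arrays, and regained 63.6%. Ndufc1 regained 58.7%, Ndufa1 23.3% and Ndufa3 14.6%. Ndufv3 was at 1097 and 1079 with TP and did not regain any of its loss. With E2 the share was largest for Ndufa4, 57.1%, whose share with TP was 58.4%. These shares carry no test, since numerator and denominator rest on the same castrated arrays. Apart from Cycs with TP, none of these differences from castrated passed. The shares also rest on the probe sets kept. A further Ndufb7 probe set had log2 differences of -0.63 after castration and 0.37 with TP against castrated. For a further Ndufc1 probe set they were -0.64 and 0.11. The further Cycs probe sets above background had -1.31 and 1.18, and -0.91 and 1.17. Over all members, 35 of 61 further probe sets above background had the sign of the one kept for TP against castrated and 26 the opposite.

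Among the other lists, few genes separated TP from E2 in the caput, where 2.12% of all genes were called. Atp5g1 was at 1579 and 1453 with TP and at 863 and 736 with E2 (log2 difference 0.93, limma adjusted p = 0.0413), the 1 call among 18 ATP synthase subunits. Of 76 mitochondrial ribosomal proteins 1 rose, Mrps6 by 1.26 on the log2 scale. Hk2 was 1.57 higher on the log2 scale with TP, Aldoc, a glycolytic aldolase, was 1.65 lower, and the mitochondrial helicase gene Twnk was 0.95 lower. The assembly factors, import genes and citric acid cycle enzymes held 0 calls. Of 7 principal cell markers 2 were higher with TP, with sums of 12478 to 17747 with TP and 4875 to 7463 with E2. Sperm markers were low in both steroid groups, with sums of 104 to 136 with TP and 153 to 505 with E2, and macrophage markers summed to 2132 to 2650.3 against 2898 to 3185. White fat markers, 0 of 3 of which passed, summed to 350.3 to 396 against 1328 to 2562. Their part in the differences was not tested.

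Castration was then read in the efferent duct, where 0 members passed limma's test and 0.291% of all genes did. At an unadjusted p under 0.05, 13 members were lower (8.55% of all genes) and 2 higher (7.27%). The members again leaned down: 57 of 65 members were below 0 (87.7%, beside 48.7% of all genes), with a median of -0.34 beside 0.02. Both castrated arrays lay below both sham arrays for 46 members (70.8%, beside 23.0% of all genes) and above them for 4 (24.5%). The median half-width of a member's 95% interval was 0.53, so single differences of this size could not be resolved with 2 arrays per group. The median stayed between -0.39 and -0.29 when 1 array was left out, with -0.39 and 57 members below 0 without castrated replicate 1, the array with the highest actin ratio. It was -0.28 with either rescaling, and 4 members passed with an intensity trend (3.84% of all genes) and 6 in 1 fit of all 16 arrays (5.45%).

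Ndufa1 again had the largest difference below 0 among subunits above background on all 4 arrays. It was at 1302 and 1246 in sham and at 691 and 469 in castrated duct, with the groups apart but the castrated arrays uneven (log2 difference -1.16, SE 0.28, limma adjusted p = 0.157). Ndufa6 was at 771 and 803 against 494 and 349.6 (-0.92), while in the caput its groups overlapped. In complex III, Uqcrq was at 375 and 385 against 226 and 190.1 (-0.88) and Uqcr11 at 416 and 447 against 317 and 186 (-0.83). Cycs was at 714 and 669 against 446 and 413 (-0.69, limma adjusted p = 0.302), also without overlap.

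The 4 complexes of the duct leaned the same way. Complex I had 31 of 33 members below 0 (median -0.39), complex II 4 of 4 (-0.29), complex III 9 of 9 (-0.34) and complex IV 12 of 18 (-0.24). In complex II, Sdha was at 982 and 1004 in sham and 864 and 711 in castrated duct (-0.34). Sdhd was at 254 and 302 against 155 and 202 (-0.65). By the probe sets kept, both genes were lower on both castrated arrays. Another Sdhd probe set, brighter in the duct, went the other way, at a mean log2 intensity of 8.60 in sham and 8.92 in castrated duct (0.32). Over all members, 49 of 56 further probe sets above background in the duct had the sign of the one kept and 7 the opposite. In complex IV, Cox4i1 was at 1602 and 1936 against 1357 and 1359.6 (-0.37), Cox8a at 356 and 389.7 against 239.8 and 281 (-0.52) and Cox5a at 719 and 948 against 798 and 711 (-0.13). Cox5a, which had fallen in the caput, overlapped between groups here by the probe set kept, and Cox4i1 and Cox8a did not. Further Cox5a probe sets above background had larger differences in the duct, of -0.26 and -0.48. Of the subunits that fell in the caput 11 of 12 were below 0 in the duct, with a median of -0.42 over the 12.

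The 8 subunits above 0 in the duct included 4 muscle or testis forms of complex IV subunits, which are dim here. Cox8b was at 26.8 and 25.1 in sham and 72.5 and 82.1 in castrated duct, a difference of 1.57 that did not pass. Cox7b2 was at 16.9 and 18.7 against 43.5 and 34.0 and Cox6a2 at 19.1 and 14.3 against 27.6 and 34.6, both higher on both castrated arrays. Cox7c, a common subunit with a dim probe set, overlapped at 86.6 and 53.1 against 72.9 and 111. The other tissue-restricted forms of complex IV subunits were below 0. Cox7a1 was at 54.0 and 57.7 in sham and 6.93 and 21.7 in castrated duct (-2.19), and Cox6b2 at 135 and 187 against 119 and 77.7 (-0.72). Cox4i2 had a difference of -1.19. Cox7a1 and Cox4i2 were not above background on all 4 arrays. Striated muscle markers summed to 92.1 and 94.6 in sham and 65.8 and 109 in castrated duct, and the 10 germ cell markers, 0 of which passed, to 650.3 and 669 against 98.1 and 108. The 6 markers of efferent duct epithelium, 0 of which passed, summed to 5938 and 6127 in sham and 4119 and 4414 in castrated duct. The 7 markers of caput principal cells were present on the sham duct arrays too, with sums of 2862 to 7466 against 48.9 to 165 in castrated duct, and 0 of them passed. The part of these cells in the subunit values was not tested.

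Most of the other lists leaned down in the duct, where 48.7% of all genes were below 0 and 0.291% were called. Of 18 ATP synthase subunits 18 were below 0 after castration (median -0.32), of 76 mitochondrial ribosomal proteins 61 (-0.26), of 45 assembly factors 35 (-0.23) and of 28 import and cristae genes 23 (-0.16), with 0 calls in these lists. Of 17 citric acid cycle enzymes 14 were below 0 (-0.17) with 0 calls, and of 14 glycolytic enzymes 12 (-0.35). The 22 biogenesis regulators leaned up, with 5 below 0, a median of 0.15 and 0 calls. Aldoc, which rose from 160.5 and 169 to 671 and 785, was the 1 glycolytic gene called.

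Between tissues, 47 members were lower after castration in both, beside 26.5% of all genes, and 0 were higher in both. Another 8 were lower in the caput alone and 10 in the duct alone. Most members were below 0 in each tissue, so many shared falls follow from both leans alone. Over all 65 members the Spearman correlation of the differences in the 2 tissues was 0.05 (0.18 over all genes) and the Pearson correlation -0.28 (0.19). These values include the 7 members not above background on all 16 arrays. Among those, Ndufb4 had -3.26 in the caput and 0.85 in the duct, Cox7b2 -1.78 and 1.11, and Ndufb1 -0.36 and -2.09. Correlations without them are not given, so no conclusion is drawn on whether the sizes go together gene by gene. The test of the difference itself, an interaction over 16 arrays, called 0 members and 3.23% of all genes, with 11 members at an unadjusted p under 0.05 (19.2% of all genes), and the members' median interaction was -0.01. Cox7a2 had -0.53 in the caput and 0.10 in the duct, an interaction of 0.62 that did not pass (limma adjusted p = 0.0820).

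TP was set against E2 in the efferent duct as well. Of the 65 members 0 passed, as did 0 of all genes (0.0%), and at an unadjusted p under 0.05 there were 0 members and 1467 genes (8.06%). The lean was opposite to that of the caput, with 51 members below 0 (48.8% of all genes) and a median of -0.15 beside 0.01 for all genes. For 23 members both TP arrays were below both E2 arrays (35.4%, beside 20.4%), and for 1 above (22.2%). The lean rested on 1 array: without E2 replicate 1 the median was 0.01 and 31 members were below 0. Without TP replicate 2 it was -0.11, with 46 below 0. Cycs was at 794 and 892 with TP and 1245 and 774 with E2, with overlapping groups. Cox6a1 was at 1573 and 1921 against 2457 and 2033, Cox7a2 at 2094 and 2304 against 2721 and 2657, and both had TP below E2 by 0.36 and 0.29. The widest differences were in isoforms whose duplicates disagreed: Cox8b was at 137 and 55.0 against 290.3 and 84.3 (-0.85) and Cox8c at 30.5 and 4.32 against 4.18 and 5.13 (1.31). Cox6a2 was at 20.1 and 11.9 against 23.7 and 17.7 (-0.40), Cox4i2 at 30.05 and 20.4 against 20.9 and 16.1 (0.44) and Cox6b2 at 237 and 168 against 168 and 190.2 (0.16), and the groups of these 5 isoforms overlapped. Ndufa6 was the 1 member with both TP arrays above both E2 arrays, at 575 and 456 against 454 and 449 (0.18). The interaction of steroid and tissue called 0 members and 0.0495% of all genes, with a median of -0.24 and -1.09 for Cycs (limma adjusted p = 0.278).

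Either steroid against castrated vehicle in the duct crosses the change in array quality, and the direction of the subunits there depended on scaling. With TP 26 members passed, 17 of them higher, beside 35.5% of all genes called and 23.2% called higher. With E2 27 passed, 19 of them higher, beside 30.7% and 20.0%, and without E2 replicate 1 none of the members passed. After centring each array on its median 29 passed with TP and 1 of these was higher, and 26 passed with E2 and 5 were higher. No direction is therefore given for these comparisons.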

How the data were processed

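Total RNA of 16 samples was hybridised to 1-colour Affymetrix arrays. The deposited table holds linear intensity values of 45101 probe sets, of which 34958 carry 1 gene symbol, 932 several and 9211 none. RMA is named in the submitters' processing notes, without a version. Each column has the same mean of 125.0 after trimming 2% at either end, so the deposited intensity values look scaled per array, and that step is not given in the sources used here.

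Log2 values were taken, the brightest probe set stood for each of 18194 genes, and limma 3.58.1 in R 4.3.3 was fitted to the 8 arrays of a tissue as 4 groups, with Benjamini-Hochberg adjustment over all genes and a threshold of 0.05. Interactions came from 1 fit of 16 arrays. The model was tested on simulated data. The number of arrays, 2 per group, limits the precision.

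Members and lists were chosen with earlier results of these data known. Members named with every array value were those past the threshold, the 4 highest and 4 lowest differences above background in each main comparison, and a fixed set of genes (Ndufa1, Ndufa4, Cycs, Cyc1, the Sdh genes and the isoforms of complex IV). From other lists at most 4 genes past the threshold were named. Probe sets with several symbols were left out. Promoter windows are RefSeq's. Alternatives were other filters, scalings, probe set rules, variance models and sets of arrays.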

Additional observations from a re-analysis of the deposited data

How the results depend on the processing

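Each count is of 65 members called by limma at an adjusted p under 0.05, or of 57 where the dimmest genes were dropped. For castrated against sham caput the count was 12. Dropping the 40% dimmest genes gave 26 (36.8% of genes tested), quantile normalization 6 (12.9%), median-centred arrays 20 (12.8%), averaging a gene's probe sets 6 (8.27%), a variance trend on intensity 30 (24.2%), a floor at 16 gave 23 (19.4%), and a fit of the 4 arrays alone 0 (0.0%), beside 14.0% in the reported fit. For castrated against sham duct the 0 became 4 with a trend (3.84% of genes tested) and 6 in 1 fit of 16 arrays (5.45%). For TP against E2 in the caput the 0 became 1 without dim genes (10.6%), 1 with median centring (2.11%), 4 with a trend (7.67%) and 2 with the floor of 16 (4.29%). For TP against castrated caput the 1 became 6 without dim genes (13.2%), 7 with a trend (9.27%) and 5 with the floor (5.09%). It became 0 with the mean of probe sets (0.649%), with 4 arrays (0.0%) and with the replicate block (0.0385%). For E2 against castrated caput the 0 became 1 with a trend (3.98%). In the duct, TP against castrated gave 17 with the mean of probe sets (22.1%) and 8 with 4 arrays (12.9%), and E2 against castrated 11 with 4 arrays (14.0%). The castration difference between tissues gave 2 without dim genes (9.6%), 3 with a trend (6.08%) and 4 with the floor (8.07%).

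Leaving out 1 array gave 0 to 0 calls for castrated against sham caput and for TP against castrated caput, 8 to 19 for TP against castrated duct, 0 to 19 for E2 against castrated duct and 0 to 2 for the castration difference between tissues. The cause of these shifts was not tested. A lone array left in a group is taken to vary like the other groups. Replicate numbers did not pair the arrays (correlations of deviations from -0.05 to 0.07), and the replicate block gave 8 calls for castrated against sham caput.

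Some named members changed sign (log2 differences). In the caput, Ndufs1 after castration was -0.0361 with median centring and -0.0033 to 0.22 with 1 array left out, Uqcrq 0.99 with the mean of probe sets, and Cox6a2 with TP against E2 was 0.0004 with quantile normalization and -0.44 to 0.05 with 1 array left out. In the duct after castration, Cox6a2 was -0.22 and Uqcrq 0.10 with the mean of probe sets. For TP against E2 in the duct, Cox6a2 was 0.16 with that mean, and with 1 array left out Cox6b2 ran from -0.0882 to 0.40, Cox8b from -1.74 to 0.0419 and Cox8c from -0.10 to 2.72.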
